A study of Mus musculus with 16 samples.

Results

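The genotype by time interaction between day 0 and day 2 asked, gene by gene, whether TKO cells changed by another amount than WT cells when embryonic stem cells left the naive state. It was the log2 change of day 2 over day 0 in TKO cells minus the same change in WT cells, computed across all genes from estimated counts summed per gene. It compared 8 of the 16 libraries of the series, 2 in each of 4 groups, chosen by their genotype and day. The groups were TKO on day 2, TKO on day 0, WT on day 2 and WT on day 0.

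All 4 groups came from the mouse embryonic stem cell line ES-E14TG2a, also called E14. On day 0 the cells had been kept on fibronectin in serum-free medium that held vitamin C, LIF and blockers of MEK and Gsk3. On day 2 they had been replated and moved to Fgf2, Activin A and a little knock-out serum, which turns them into epiblast-like cells. The labels give no expansion of TKO and do not say how many clones it comprised; loss of Dnmt1, Dnmt3a and Dnmt3b is assumed here. Messenger RNA was sequenced with a stranded protocol. The labels call the 2 libraries of a group biological replicates without saying what was kept separate, so p-values measure only the spread between such libraries. That spread was estimated from all 16 libraries of the series, including those of later days, and not from these 4 groups alone.

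Inhibitors of MEK and Gsk3 hold stem cells in the naive state of the preimplantation embryo, and MEK inhibition keeps the FGF to ERK signal low. When the inhibitors are taken away and Fgf2 and Activin A are given, ERK signalling starts, naive genes are switched off and genes of the formative epiblast are switched on. In the same window the DNA methyltransferases Dnmt3a and Dnmt3b methylate the genome, and the CpG-rich promoters of many germline genes are silenced.

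Of the assumed targets, Dnmt1, the maintenance methyltransferase, had 48 and 52.4 CPM in TKO cells on day 2 and 54.5 and 55.9 CPM on day 0. WT libraries read 441 and 401 CPM on day 2 and 457 and 545 CPM on day 0. Its 4 TKO libraries all lay below its 4 WT libraries, and its interaction was 0.11 ± 0.13 (edgeR adjusted p = 0.682). Dnmt3a, a de novo methyltransferase, had 57.3 and 56.9 CPM in TKO cells on day 2 and 2.79 and 2.45 CPM on day 0. WT levels were 974 and 952 CPM on day 2 and 27.5 and 33.1 CPM on day 0, with an interaction of -0.55 ± 0.91 (edgeR adjusted p = 0.801). Dnmt3b, the other de novo enzyme, had 995 and 923 CPM in TKO cells on day 2 and 29.3 and 28.9 CPM on day 0. WT cells had 1898 and 1695 CPM on day 2 and 27.3 and 29.3 CPM on day 0. Its day 0 levels overlapped between genotypes and its day 2 levels were lower in both TKO libraries, with an interaction of -0.95 ± 0.27 (edgeR adjusted p = 0.0537) that missed the threshold of 0.05. RNA of a gene whose protein is lost can persist, so RNA levels alone do not establish the genotype.

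The 8 libraries held between 34776801 and 52595303 estimated counts each. The WT libraries of day 0 stood apart from each other: 110 of 10554 genes at 5 CPM (counts scaled to a common library size) or more differed over 2-fold between them, against 11 of 10481 in WT on day 2, 7 of 10718 in TKO on day 2 and 5 of 10408 in TKO on day 0. The difference between the WT day 0 libraries had a Spearman correlation of -0.512 with effective transcript length across genes, and that between the WT day 2 libraries one of 0.433. The interaction itself had a correlation of 0.0329 with length and of 0.0116 (Pearson) with the difference between the WT day 0 libraries. TKO against WT, used below for calls by day, correlated with length at 0.204 on day 0 and 0.25 on day 2 (Spearman). With the difference between the WT day 0 libraries it correlated at -0.128 and -0.116 (Pearson). All were taken across 18489 genes, which are not independent replicates. Embryonic stem cell markers stood between 47.9 and 1638 CPM in all 8 libraries, the 3 endoderm markers at 2.91 CPM or less and the 2 trophoblast markers at 1.31 CPM or less. Of 6 fibroblast markers 4 were under 5 CPM in every library; Dcn read 14.4 and 11.6 CPM in TKO and 18.1 and 17.1 CPM in WT on day 2.

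A different change in TKO cells was called for 1398 of 18489 genes tested (7.56%), at a Benjamini-Hochberg adjusted p under 0.05 in edgeR. In 1065 genes (5.76% of those tested) the interaction was higher, that is, the TKO change lay above the WT change, and in 333 genes (1.8%) it was lower. Of the called genes 76.2% were higher, and 620 differed by 2-fold or more, 527 of them higher and 93 lower. The median interaction of all genes tested was 0.016. Without WT day 0 replicate 1 the calls numbered 2166 (1294 higher, 872 lower), and without replicate 2 they numbered 1904 (1225 higher, 679 lower). Without a TKO library they numbered 615 to 735 (99 to 122 lower), and without a WT day 2 library 820 or 906 (143 or 200.0 lower). With an offset for effective length they numbered 867 (702 higher, 165 lower). In bulk RNA, fewer cells of a type and less RNA per cell cannot be told apart.

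Most genes moved the same way in both genotypes. Within TKO cells 31.5% of genes were called higher and 25.5% lower on day 2 than on day 0, and within WT cells 32.9% were called higher and 28.6% lower. The TKO and WT changes correlated across genes at r = 0.845 (Pearson). Of 8936 genes called over time in both genotypes, 8817 went in the same direction and 119 in opposite directions. Among the genes called in the interaction, 104 rose in TKO and fell in WT cells, and 14 fell in TKO and rose in WT cells.

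**Figure D1:**
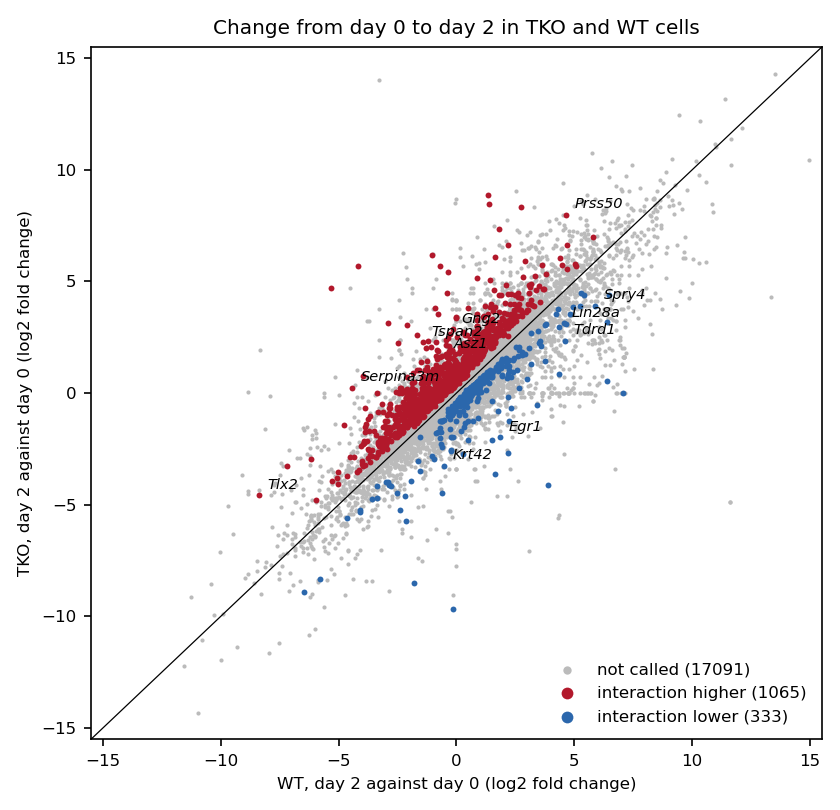
Each point is one of 18489 genes, with its log2 change of day 2 over day 0 in TKO cells on the vertical axis and in WT cells on the horizontal axis, both fitted by edgeR. The line marks equal change; the 1065 genes called higher in the interaction lie above it, the 333 called lower lie below it, and the correlation of the axes over all genes was 0.845.

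The called genes fell into a few kinds by what each genotype did over time, described from the same libraries and so no separate evidence. Among the 1065 higher genes, 304 rose in both genotypes and 274 fell in both. A further 213 fell in WT cells with no call in TKO cells, and 170 rose in TKO cells with no call in WT cells. Among the 333 lower genes, 153 rose in both genotypes, 74 rose in WT cells alone by call, 51 fell in TKO cells alone by call and 41 fell in both. A call in one genotype and none in the other is not itself a test of the difference, which the interaction gives.

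Genes of the largest kind, rising in both genotypes and more so in TKO cells, are shown by Hunk, which encodes a protein kinase (chromosome 16, 90386013 to 90499553, GRCm38). Hunk had 73 and 77 CPM in TKO cells on day 2 and 11.9 and 12.7 CPM on day 0. WT libraries read 75.1 and 70.2 CPM on day 2 and 54.2 and 60.5 CPM on day 0. Its TKO day 0 libraries lay far below the other 6, which ran from 54.2 to 77 CPM. The interaction was 2.27 ± 0.12 (edgeR adjusted p = 7.16e-07). Fstl1, a secreted glycoprotein (chromosome 16, 37776873 to 37836514), had 34.5 and 38.4 CPM in TKO cells on day 2 and 4.27 and 4.88 CPM on day 0. WT levels were 31.7 and 31.5 CPM on day 2 and 17.1 and 18 CPM on day 0, with an interaction of 2.14 ± 0.14 (edgeR adjusted p = 3.47e-06). Obsl1, a linker of the cytoskeleton (chromosome 1, 75479310 to 75506452), had 43.5 and 48.4 CPM in TKO cells on day 2 and 5.75 and 5.72 CPM on day 0. WT cells had 22.2 and 23.5 CPM on day 2 and 13.6 and 11.5 CPM on day 0. Obsl1 was thus lowest in TKO cells on day 0 and highest in TKO cells on day 2, with an interaction of 2.14 ± 0.13 (edgeR adjusted p = 1.86e-06).

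Genes that fell in both genotypes and less in TKO cells are shown by Itgb5, an integrin beta subunit (chromosome 16, 33829665 to 33949338). Itgb5 had 17.4 and 19.6 CPM in TKO cells on day 2 and 25.8 and 26.3 CPM on day 0. WT libraries read 14.3 and 16.4 CPM on day 2 and 76.3 and 66.3 CPM on day 0; the day 2 libraries of both genotypes were near each other, and the interaction was 1.73 ± 0.14 (edgeR adjusted p = 1.89e-05). Sept8, a septin (chromosome 11, 53519257 to 53549565), had 29.3 and 29.2 CPM in TKO cells on day 2 and 40.9 and 40.4 CPM on day 0. WT levels were 16.9 and 15.1 CPM on day 2 and 49.9 and 58.5 CPM on day 0, with an interaction of 1.29 ± 0.13 (edgeR adjusted p = 0.000168). Sept8 thus stood higher in both TKO than in both WT libraries on day 2 and lower on day 0. Krt42, a keratin (chromosome 11, 100262882 to 100269871), fell in both genotypes and more so in TKO cells. It had 2.68 and 3.21 CPM in TKO cells on day 2 and 28.3 and 28 CPM on day 0. WT cells had 3.15 and 3.37 CPM on day 2 and 5.43 and 3.94 CPM on day 0; the TKO day 0 libraries stood far above the other 6, and the interaction was -2.73 ± 0.25 (edgeR adjusted p = 7.39e-05).

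Galnt12, an enzyme of mucin-type glycosylation (chromosome 4, 47091909 to 47123070), fell in WT cells with no call over time in TKO cells. It had 4.24 and 4.27 CPM in TKO cells on day 2 and 4.21 and 4.04 CPM on day 0. WT libraries read 1.89 and 1.58 CPM on day 2 and 11.2 and 9.24 CPM on day 0, so that its 4 TKO libraries lay between the WT libraries of day 2 and of day 0. Its interaction was 2.60 ± 0.22 (edgeR adjusted p = 4.18e-05). Slc38a6, of an amino acid transporter family (chromosome 12, 73286779 to 73354049), had the same order, with 114 and 106 CPM in TKO cells on day 2 and 104 and 103 CPM on day 0. WT levels were 68.9 and 68.3 CPM on day 2 and 262 and 266 CPM on day 0, and its interaction was 2.03 ± 0.21 (edgeR adjusted p = 0.000168). Olfr784, an olfactory receptor gene, had 3.01 and 3.24 CPM in TKO cells on day 2 and 3.13 and 3.38 CPM on day 0. WT cells had 1.83 and 1.48 CPM on day 2 and 7.06 and 7.03 CPM on day 0, with an interaction of 2.02 ± 0.21 (edgeR adjusted p = 0.000173).

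Gng2, a gamma subunit of heterotrimeric G proteins (chromosome 14, 19872559 to 19977627), rose in TKO cells with no call over time in WT cells. It had 38 and 32.3 CPM in TKO cells on day 2 and 4.81 and 4.82 CPM on day 0. WT libraries read 42.7 and 42.2 CPM on day 2 and 44 and 49 CPM on day 0. The TKO libraries of day 0 stood far below the other 6, which ran from 32.3 to 49 CPM. Its interaction of 3.00 ± 0.17 (edgeR adjusted p = 7.16e-07) was among the 8 largest positive ones under the naming rule. Prnp, the prion protein gene (chromosome 2, 131909928 to 131938429), had 17.8 and 16.3 CPM in TKO cells on day 2 and 2.82 and 3.23 CPM on day 0. WT levels were 13.7 and 13.6 CPM on day 2 and 13.3 and 13.7 CPM on day 0, again with the TKO day 0 libraries alone far below the rest, and an interaction of 2.48 ± 0.15 (edgeR adjusted p = 9.41e-07). Snx25, a sorting nexin (chromosome 8, 46033261 to 46152159), had 39.3 and 39.7 CPM in TKO cells on day 2 and 18.9 and 19.3 CPM on day 0. WT cells had 23.6 and 24.5 CPM on day 2 and 27.4 and 26.7 CPM on day 0. TKO cells were lowest on day 0 and highest on day 2. Its interaction was 1.22 ± 0.10 (edgeR adjusted p = 4.18e-05).

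Seen by day instead of by genotype, TKO against WT was called higher for 4.52% and lower for 8.16% of all genes on day 0, and higher for 7.91% and lower for 5.52% on day 2. Of the 1065 genes with a higher interaction, 421 were lower in TKO on day 0 with no call on day 2, 445 were higher in TKO on day 2 with no call on day 0, and 117 were lower on day 0 and higher on day 2. Of the 333 with a lower interaction, 167 were higher in TKO on day 0 with no call on day 2, 105 were lower on day 2 with no call on day 0, and 19 were higher on day 0 and lower on day 2. On neither day was TKO against WT called for 55 of the higher and 39 of the lower genes.

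Days 4 and 7 were used to see how these genes stood later. Their libraries enter the interaction and its calls only through the gene filter, the scaling and the dispersions. Without the libraries of day 4, 2042 genes were called in the interaction. On day 4, TKO was called higher than WT for 54.8% of the 445 genes that were higher on day 2 only, against 17.8% of all genes tested, and lower for 4.72%, against 11.1%. Of the 421 genes lower on day 0 only, 27.3% were called higher and 22.6% lower on day 4. Of the 105 genes lower on day 2 only, 36.2% were called lower and 8.57% higher on day 4, while of the 167 genes higher on day 0 only, 15.6% were called higher and 15% lower. On day 7 the 445 genes were called higher in 38.0% and lower in 22.7%, against 23.4% and 21.1% of all genes tested.

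**Figure D2:**
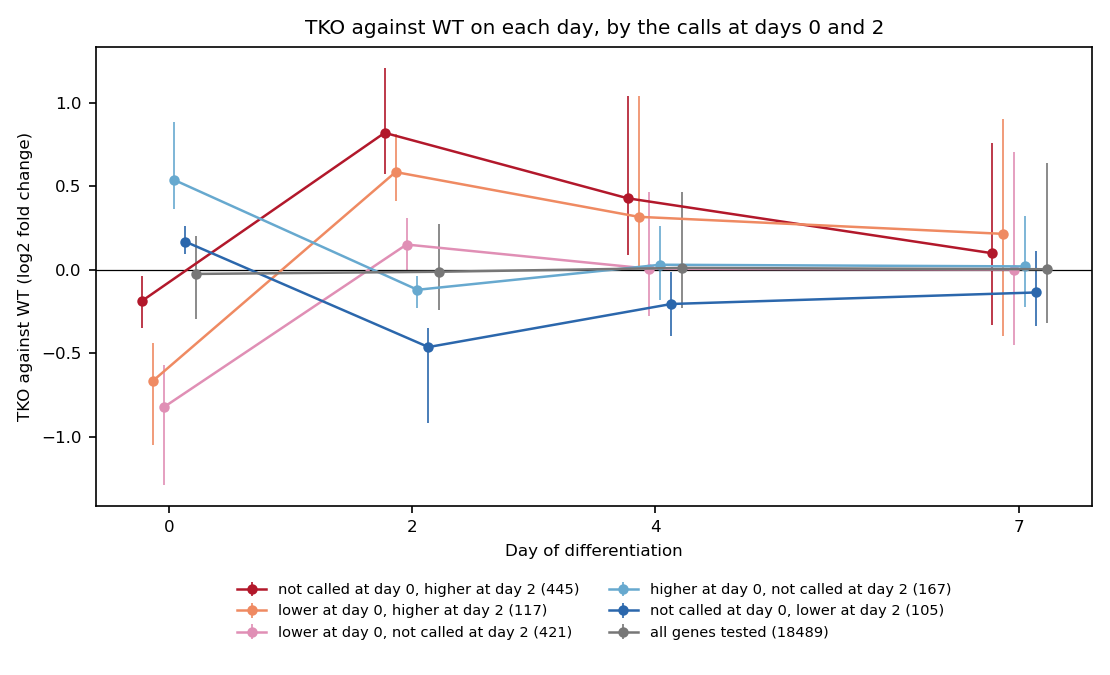
Points are medians, and bars the quartiles, of the log2 fold change of TKO over WT on each day, for 5 sets of called genes and all 18489 genes; sets are offset sideways for legibility. The sets were chosen by their calls on days 0 and 2. Libraries of days 4 and 7 entered those calls through the gene filter, the scaling and the dispersions, but their fold changes did not. The set higher on day 2 only had a median of 0.43 on day 4 and the set lower on day 0 only one of 0.01.

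Feedback genes and targets of the FGF to ERK signal are the readout of MEK inhibition and its release. Of 15 on the list all were tested, and 4 were called lower and 1 higher, with a median interaction of -0.03; the share called over all genes was 1.8% lower and 5.76% higher. Spry4, a feedback inhibitor of receptor tyrosine kinase signalling, had 91.6 and 97.5 CPM in TKO cells on day 2 and 6.49 and 6 CPM on day 0. WT libraries read 91 and 91.8 CPM on day 2 and 1.54 and 1.56 CPM on day 0. On day 2 the genotypes overlapped, while on day 0 both TKO libraries were above both WT libraries. Its rise was smaller in TKO cells, with an interaction of -1.96 ± 0.18 (edgeR adjusted p = 6.31e-05). Etv4, an ETS transcription factor induced by FGF, had 107 and 114 CPM in TKO cells on day 2 and 65.2 and 64.9 CPM on day 0. WT levels were 98.5 and 106 CPM on day 2 and 28.7 and 24.3 CPM on day 0. TKO was above WT on both days and by more on day 0, with an interaction of -1.19 ± 0.13 (edgeR adjusted p = 0.000329). Myc, a transcription factor of growth (chromosome 15, 61985391 to 61990374), had 56.1 and 63.2 CPM in TKO cells on day 2 and 3.73 and 4.59 CPM on day 0. WT cells had 72.6 and 82.9 CPM on day 2 and 2.41 and 2.61 CPM on day 0, higher in TKO on day 0 and lower on day 2, with an interaction of -1.11 ± 0.17 (edgeR adjusted p = 0.00212).

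Ccnd1, the cyclin D1 gene, had a smaller interaction of -0.43 ± 0.12 (edgeR adjusted p = 0.0446), a call lost in 8 of the 20 alternative settings. Dusp5, a nuclear phosphatase of ERK, went the other way with 0.91, a call lost in 10 of them. Dusp6, the cytoplasmic phosphatase of ERK, had 168 and 170.2 CPM in TKO cells on day 2 and 9.11 and 8.86 CPM on day 0. WT libraries read 159 and 169 CPM on day 2 and 8.57 and 8.52 CPM on day 0. The genotypes overlapped on day 2 and lay within 1 CPM on day 0, and its interaction of -0.03 ± 0.15 (edgeR adjusted p = 0.963) was not called. Myc, Ccnd1 and the genes of other lists named beyond 2 per direction were named after their values were seen.

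Immediate-early genes, which respond to growth factors without new protein synthesis, were called higher in 2 and lower in 2 of 25, with a median of 0.21. Calls thus covered 16% of the list, against 7.56% of all genes. Egr1, an ERK-responsive zinc finger factor, had 23 and 22.3 CPM in TKO cells on day 2 and 88.7 and 91.4 CPM on day 0. WT levels were 28.3 and 21.7 CPM on day 2 and 7.06 and 6.73 CPM on day 0. Egr1 fell in TKO cells and rose in WT cells, its levels overlapping on day 2 and standing far higher in TKO on day 0, with an interaction of -3.85 ± 0.43 (edgeR adjusted p = 0.000642). Srf, the serum response factor, had an interaction of -0.64 ± 0.13 (edgeR adjusted p = 0.00842), and the activity-regulated gene Arc one of 0.73 ± 0.19 (edgeR adjusted p = 0.0348). Zfp36, which destabilises messenger RNA, had one of 0.94 ± 0.23 (edgeR adjusted p = 0.0235), a call lost in 5 of 20 settings. Fos, of the AP-1 complex, had 0.875 and 0.985 CPM in TKO cells on day 2 and 24.7 and 24.4 CPM on day 0. WT cells had 0.69 and 0.856 CPM on day 2 and 14.5 and 14.1 CPM on day 0; it fell in both genotypes and its interaction of -0.50 ± 0.40 (edgeR adjusted p = 0.538) was not called. Without any one of the 8 libraries the call of Arc was lost.

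**Figure D3:**
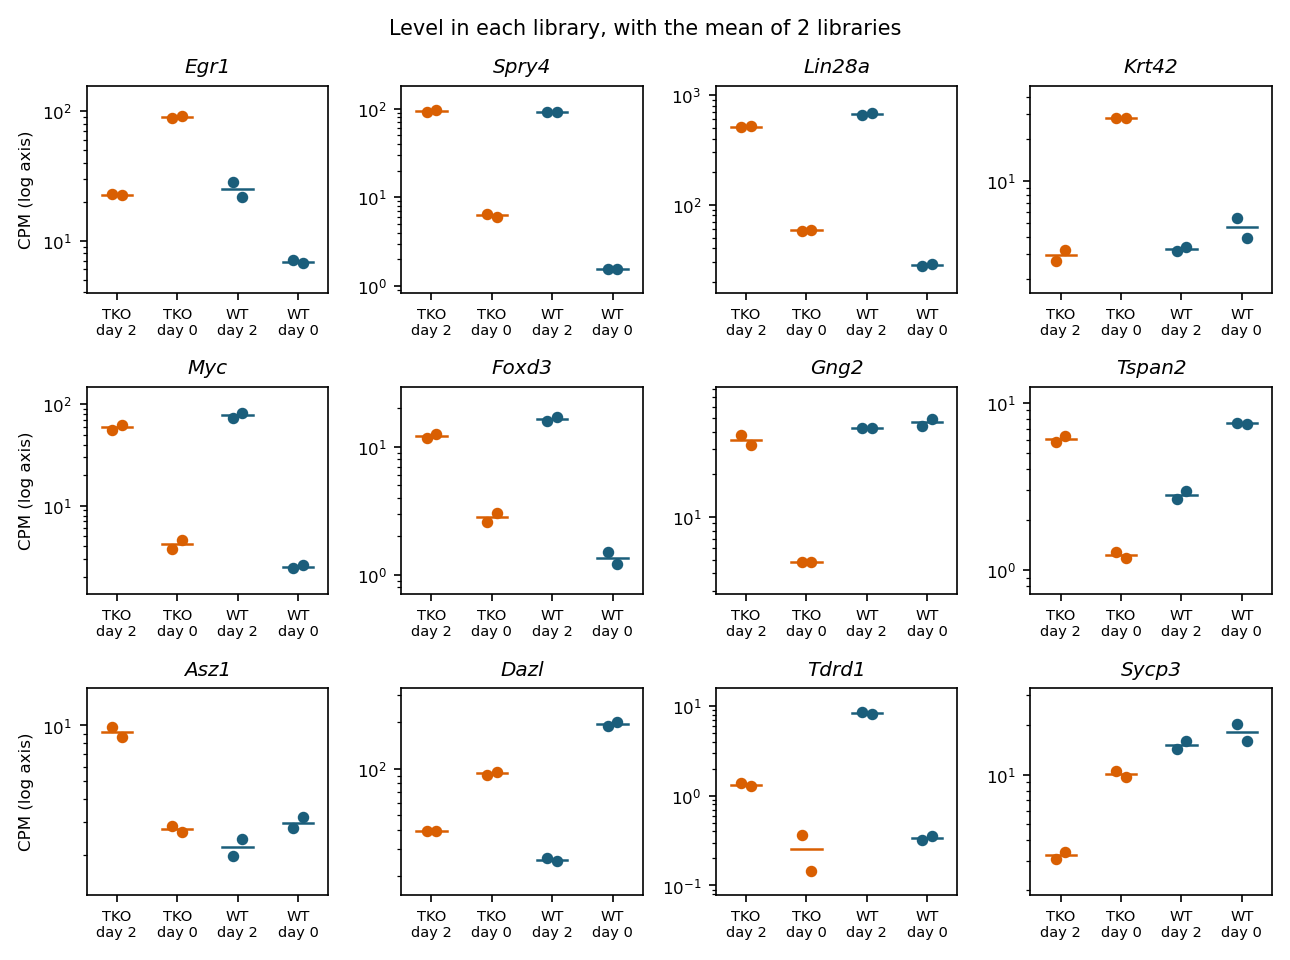
Level in each of the 8 libraries in CPM (log axis, own range in each panel) for 12 genes, with a bar at the mean of the 2 libraries; TKO is drawn left of WT and day 2 left of day 0. Egr1, Spry4, Krt42 and Gng2 differ mainly on day 0, where TKO libraries stand apart from WT, whereas Asz1 and Tdrd1 differ mainly on day 2.

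Of 21 naive pluripotency genes 18 fell in TKO and 18 fell in WT cells, against 25.5% and 28.6% of all genes. In the interaction none was called in edgeR and none in DESeq2, against 7.56% of all genes in edgeR. An unadjusted edgeR p under 0.05 was found for 1, and for 4037 of all 18489 genes. Their interactions ran from -0.68 to 0.52 with a median of -0.04. Nanog, a core factor of the naive state, had 102 and 100.4 CPM in TKO cells on day 2 and 792 and 792 CPM on day 0. WT libraries read 83.6 and 92.9 CPM on day 2 and 738 and 726 CPM on day 0, with an interaction of 0.08 ± 0.15 (edgeR adjusted p = 0.821). Klf4, another naive factor, had 4.05 and 3.73 CPM in TKO cells on day 2 and 214 and 215 CPM on day 0. WT levels were 3.31 and 3.53 CPM on day 2 and 222 and 225 CPM on day 0, with an interaction of 0.24 ± 0.24 (edgeR adjusted p = 0.63). Esrrb, Zfp42 and Tfcp2l1, further naive factors, had -0.15, -0.29 and 0.52, none called. A p that misses the threshold does not show equal change: the SE of Esrrb was 0.44.

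Formative and primed epiblast genes rose in both genotypes, all 20 of them called in each. Of all genes 31.5% rose in TKO and 32.9% in WT cells. In the interaction 3 were called higher and 2 lower (25% called, against 7.56% over all genes), with a median of -0.05. Fgf5, an epiblast growth factor, had 94.7 and 73.4 CPM in TKO and 98.4 and 92.4 CPM in WT cells on day 2, with overlapping genotypes. On day 0 it was at 0 and 0.115 CPM in TKO and at 0 in both WT libraries, so no fold is given. Otx2, a transcription factor of the epiblast, had 106 and 93.7 CPM in TKO cells on day 2 and 11 and 11.3 CPM on day 0. WT cells had 121 and 110.2 CPM on day 2 and 12.5 and 12.8 CPM on day 0, with an interaction of -0.03 ± 0.16 (edgeR adjusted p = 0.968). Pou3f1, also called Oct6, had an interaction of -0.63 ± 0.52 (edgeR adjusted p = 0.539). Grhl2, a factor of epithelial enhancers, was at 4.07 and 3.72 CPM in TKO and 8.16 and 7.86 CPM in WT cells on day 0, and its genotypes overlapped on day 2. It rose more in TKO cells, with an interaction of 0.96 ± 0.17 (edgeR adjusted p = 0.00419). Lef1, a Wnt effector, had 0.75 ± 0.16 (edgeR adjusted p = 0.0127) and Sox3, an HMG-box factor, 1.26 ± 0.33 (edgeR adjusted p = 0.0352), the call of Sox3 being lost in 6 of 20 settings. Car14, a carbonic anhydrase, had -1.39 ± 0.32 (edgeR adjusted p = 0.0171) and Etv4 was given above.

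Of 12 core pluripotency genes 4 were called lower and none higher (33.3% called, against 7.56% over all genes), with a median of -0.37. In each genotype 9 of the 12 rose, against 31.5% of all genes in TKO and 32.9% in WT cells. Lin28a, the RNA-binding repressor of let-7 (chromosome 4, 134003330 to 134018841), had 509 and 519 CPM in TKO cells on day 2 and 58.3 and 58.5 CPM on day 0. WT libraries read 653 and 684 CPM on day 2 and 27.7 and 29.2 CPM on day 0. TKO libraries were above WT on day 0 and below WT on day 2, and the interaction was -1.42 ± 0.11 (edgeR adjusted p = 1.89e-05). Foxd3, a forkhead factor (chromosome 4, 99656299 to 99658622), had 11.6 and 12.5 CPM in TKO cells on day 2 and 2.59 and 3.03 CPM on day 0. WT levels were 15.9 and 17.1 CPM on day 2 and 1.51 and 1.21 CPM on day 0, in the same order, with -1.50 ± 0.26 (edgeR adjusted p = 0.00405). Sall4, a zinc finger factor (chromosome 2, 168748332 to 168767943), fell in TKO cells with no call in WT cells. It had 119.9 and 122 CPM in TKO cells on day 2 and 177 and 175 CPM on day 0. WT cells had 145 and 149 CPM on day 2 and 131 and 137 CPM on day 0, with -0.68 ± 0.11 (edgeR adjusted p = 0.00234). L1td1, an RNA-binding protein, had -0.48 ± 0.13 (edgeR adjusted p = 0.0459), a call lost in 9 of 20 settings. Pou5f1 and Sox2 had -0.17 and -0.09, neither called.

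**Figure D4:**
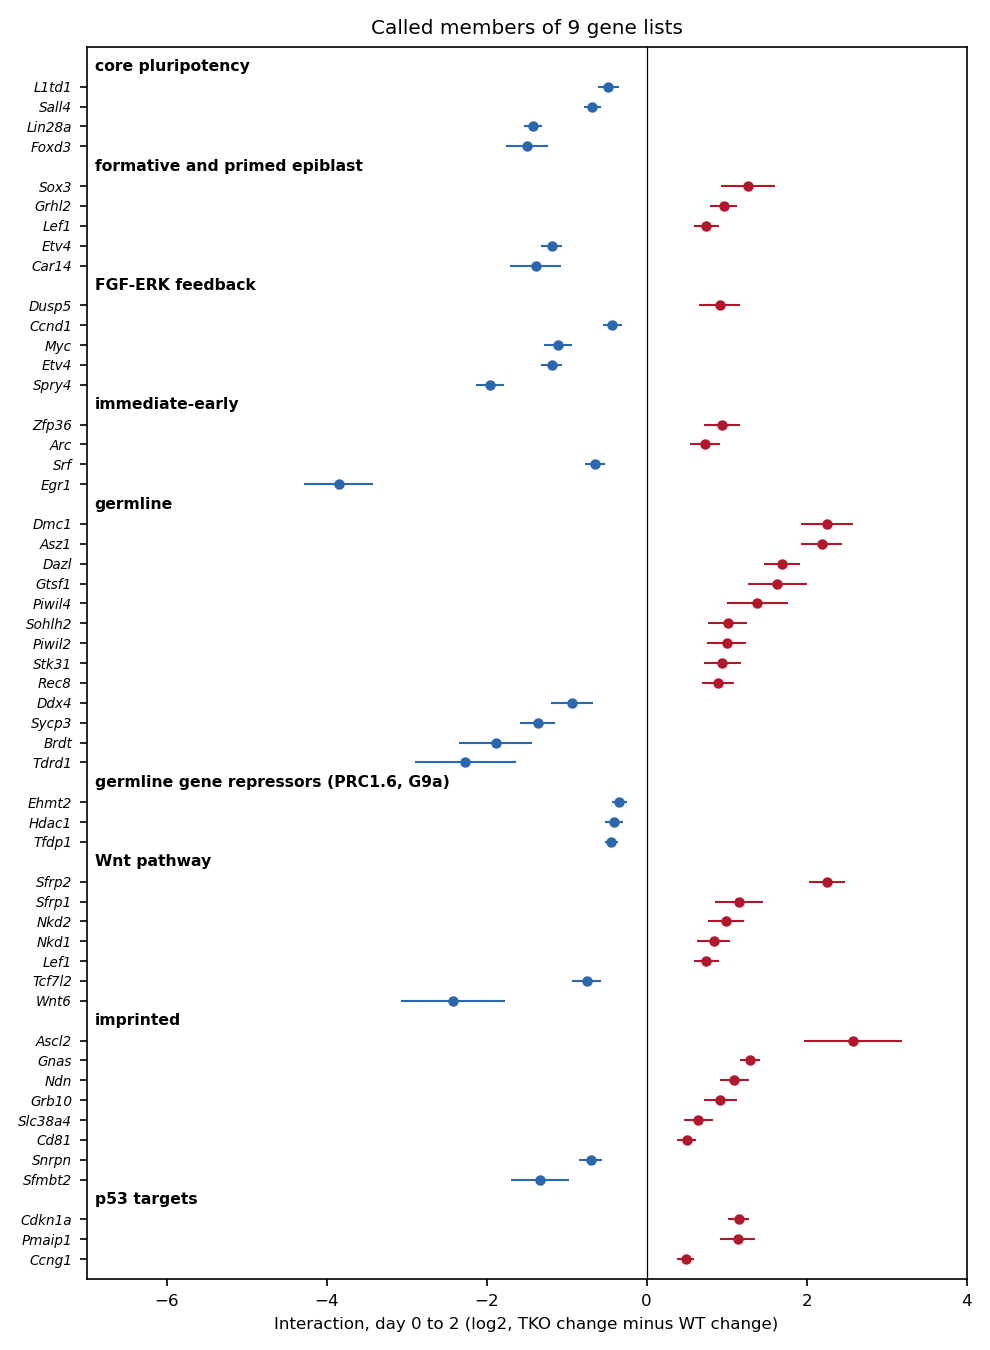
Interaction (log2, TKO change minus WT change) with its SE for the called members of 9 gene lists; red points were called higher and blue points lower by edgeR. Core pluripotency and germline repressor genes called were all lower, p53 targets called were all higher, and germline genes lay on both sides.

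Germline genes held called members in both directions: of 51 tested, 9 were called higher and 4 lower, with a median of 0.25 against 0.016 over all genes. The share called was 25.5%, against 7.56% over all genes. Over time 28 of the 51 rose in TKO and 28 rose in WT cells, against 31.5% and 32.9% of all genes. In TKO cells 8 fell and in WT cells 11, against 25.5% and 28.6% of all genes. Without WT day 0 replicate 1 the calls were 9 higher and 2 lower, and without replicate 2 they were 10 higher and 3 lower; without a library of another group 3 to 5 higher and 1 to 2 lower were left. With the effective-length offset they were 7 higher and 1 lower. All 13 called members are named, and Dazl, Asz1, Dmc1 and Sycp3 kept their calls in all 20 alternative settings.

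Promoters of 8 of these genes are printed, because germline genes silenced at this stage are known for CpG-rich promoters with E2F and E-box sites bound by the repressor complex PRC1.6. Each runs from 250 bases before to 50 bases after the gene's start in RefSeq, on GRCm38.p6, 5′ to 3′ on the gene's strand. Capitals mark E2F sites (TCCCGC or its reverse complement GCGGGA) and E-boxes (CACGTG, the same on both strands); the motifs share no letters in these promoters. The first 4 genes were called lower in the interaction and the last 4 higher.
Sycp3 (chr10:88459337-88459636, plus strand): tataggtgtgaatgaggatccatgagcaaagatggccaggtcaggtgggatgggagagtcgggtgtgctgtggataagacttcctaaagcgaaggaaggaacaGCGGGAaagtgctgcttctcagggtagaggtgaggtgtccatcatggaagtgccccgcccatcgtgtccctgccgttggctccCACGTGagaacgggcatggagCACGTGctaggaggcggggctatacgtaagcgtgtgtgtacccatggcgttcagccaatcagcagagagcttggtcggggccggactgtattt
Tdrd1 (chr19:56825959-56826258, plus strand): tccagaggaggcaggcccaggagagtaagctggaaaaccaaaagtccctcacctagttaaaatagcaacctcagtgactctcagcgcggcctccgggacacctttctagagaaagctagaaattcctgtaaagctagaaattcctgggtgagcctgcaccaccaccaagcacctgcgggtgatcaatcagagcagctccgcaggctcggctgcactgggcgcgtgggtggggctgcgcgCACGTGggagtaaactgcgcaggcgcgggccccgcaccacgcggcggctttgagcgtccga
Ddx4 (chr13:112652261-112652560, minus strand): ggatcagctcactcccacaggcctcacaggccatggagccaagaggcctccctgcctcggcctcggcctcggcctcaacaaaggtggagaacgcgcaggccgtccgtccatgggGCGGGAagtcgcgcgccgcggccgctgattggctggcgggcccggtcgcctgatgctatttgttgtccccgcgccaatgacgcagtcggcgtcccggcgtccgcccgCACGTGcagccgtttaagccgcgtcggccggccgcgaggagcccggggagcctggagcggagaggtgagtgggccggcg
Brdt (chr5:107330944-107331243, plus strand): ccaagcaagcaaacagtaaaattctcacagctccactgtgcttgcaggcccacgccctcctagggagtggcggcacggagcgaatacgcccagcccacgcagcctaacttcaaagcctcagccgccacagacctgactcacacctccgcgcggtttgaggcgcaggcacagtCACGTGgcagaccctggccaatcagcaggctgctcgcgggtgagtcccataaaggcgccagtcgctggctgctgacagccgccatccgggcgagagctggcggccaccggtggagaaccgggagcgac
Dazl (chr17:50293571-50293870, minus strand): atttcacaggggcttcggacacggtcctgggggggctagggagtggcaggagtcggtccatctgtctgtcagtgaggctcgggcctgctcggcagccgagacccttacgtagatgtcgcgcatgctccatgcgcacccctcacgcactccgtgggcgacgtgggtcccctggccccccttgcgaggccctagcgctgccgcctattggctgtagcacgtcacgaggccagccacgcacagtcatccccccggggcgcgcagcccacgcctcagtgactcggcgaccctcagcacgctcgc
Asz1 (chr6:18109012-18109311, minus strand): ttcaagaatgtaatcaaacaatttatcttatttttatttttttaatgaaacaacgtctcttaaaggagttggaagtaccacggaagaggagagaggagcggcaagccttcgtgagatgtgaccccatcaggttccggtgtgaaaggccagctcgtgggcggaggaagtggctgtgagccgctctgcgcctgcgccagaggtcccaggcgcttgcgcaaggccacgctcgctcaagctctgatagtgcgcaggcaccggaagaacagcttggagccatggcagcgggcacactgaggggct
Dmc1 (chr15:79605060-79605359, minus strand): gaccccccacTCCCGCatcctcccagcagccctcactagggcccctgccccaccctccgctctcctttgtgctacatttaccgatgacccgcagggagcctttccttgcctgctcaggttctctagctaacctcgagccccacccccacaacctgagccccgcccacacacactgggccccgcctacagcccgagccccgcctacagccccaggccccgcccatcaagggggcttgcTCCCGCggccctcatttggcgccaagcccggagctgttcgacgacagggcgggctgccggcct
Stk31 (chr6:49395354-49395653, plus strand): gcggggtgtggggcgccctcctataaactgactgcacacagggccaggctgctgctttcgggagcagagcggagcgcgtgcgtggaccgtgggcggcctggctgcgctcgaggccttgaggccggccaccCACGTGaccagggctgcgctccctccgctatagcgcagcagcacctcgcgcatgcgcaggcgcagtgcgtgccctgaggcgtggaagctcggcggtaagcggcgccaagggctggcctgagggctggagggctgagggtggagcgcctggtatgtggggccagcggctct
An E-box stood in the promoters of all 4 germline genes called lower, 2 of them in that of Sycp3, and in 1 of 8 called higher, that of Stk31. It stood in 11 of 33 germline promoters without a call, in 16 of 45 germline promoters in all (35.6%), and in 1222 of 13070 promoters of all genes tested (9.35%). Among all called genes it stood in 42 of 259 promoters of lower genes (16.2%) and 69 of 810 of higher genes (8.52%). Among promoters with 15 CpG or more the shares were 20.3% of lower, 9.07% of higher and 11.6% of all. E2F sites stood in 39.4% of lower, 36.7% of higher and 32.5% of all promoters. These are matches of letters in a window, counted after the calls were known, and no site or factor was measured; Piwil2 was not among the promoters.

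Germline genes called lower began with Sycp3, of the axis of meiotic chromosomes (chromosome 10, 88459569 to 88473236). It had 3.09 and 3.42 CPM in TKO cells on day 2 and 10.5 and 9.61 CPM on day 0. WT libraries read 14.2 and 15.9 CPM on day 2 and 20.2 and 15.9 CPM on day 0. Sycp3 fell in TKO cells with no call over time in WT cells, and its interaction was -1.36 ± 0.22 (edgeR adjusted p = 0.00239). Tdrd1, a Tudor-domain partner of the piRNA pathway (chromosome 19, 56826209 to 56870012), had 1.39 and 1.27 CPM in TKO cells on day 2 and 0.37 and 0.144 CPM on day 0. WT levels were 8.65 and 8.12 CPM on day 2 and 0.324 and 0.352 CPM on day 0. It rose in both genotypes, and both WT libraries of day 2 lay above the other 6, which were at 1.39 CPM or less. Its interaction was -2.27 ± 0.63 (edgeR adjusted p = 0.0441). Ddx4, the germ cell RNA helicase Vasa, had 13.3 and 12.8 CPM in TKO cells on day 2 and 5.52 and 5.95 CPM on day 0. WT cells had 28.5 and 28.1 CPM on day 2 and 6.49 and 6.53 CPM on day 0, with -0.93 ± 0.26 (edgeR adjusted p = 0.0474). Brdt, a testis bromodomain protein, had 0.601 and 0.68 CPM in TKO cells on day 2 and 0.825 and 0.837 CPM on day 0. WT libraries read 1.67 and 2.36 CPM on day 2 and 0.433 and 0.955 CPM on day 0, with -1.89 ± 0.46 (edgeR adjusted p = 0.0239). The calls of Tdrd1, Ddx4 and Brdt were lost in 8, 11 and 7 of 20 settings. Without either WT day 0 library those of Tdrd1 and Ddx4 were lost.

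Germline genes called higher began with Asz1, an ankyrin-repeat protein of the piRNA pathway (chromosome 6, 18050964 to 18109061). Asz1 had 9.81 and 8.68 CPM in TKO cells on day 2 and 2.87 and 2.66 CPM on day 0. WT levels were 1.97 and 2.44 CPM on day 2 and 2.78 and 3.19 CPM on day 0; it rose in TKO cells only by call, its 2 TKO day 2 libraries stood above the other 6, and its interaction was 2.19 ± 0.25 (edgeR adjusted p = 0.000546). Dazl, which binds RNA in germ cells (chromosome 17, 50279395 to 50293636), had 39.5 and 39.4 CPM in TKO cells on day 2 and 91.1 and 95.5 CPM on day 0. WT cells had 26.1 and 25.1 CPM on day 2 and 190.0 and 200.4 CPM on day 0. Dazl fell in both genotypes and less in TKO cells, with 1.69 ± 0.22 (edgeR adjusted p = 0.000825). Dmc1, the meiotic recombinase (chromosome 15, 79561497 to 79605109), had 3.5 and 3.47 CPM in TKO cells on day 2 and 0.398 and 0.26 CPM on day 0. WT libraries read 5.87 and 6.43 CPM on day 2 and 3.14 and 2.46 CPM on day 0; it rose in both, and the TKO libraries were below the WT libraries on both days, with 2.25 ± 0.32 (edgeR adjusted p = 0.00135). Piwil2, Piwil4, Gtsf1, Stk31, Sohlh2 and Rec8, of the piRNA pathway, germ cell transcription and meiotic cohesion, had 1.00, 1.39, 1.63, 0.95, 1.01 and 0.89, with calls lost in 4 to 9 of 20 settings.

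Libraries of day 4 enter the interaction only through the gene filter, the scaling and the dispersions. Over all genes 17.8% were called higher and 11.1% lower in TKO than in WT cells on that day. Asz1, Dazl and Stk31 were called higher. Log2 fold changes were 1.98 for Dazl and 1.70 for Stk31. Dmc1, Sycp3 and Tdrd1 were called lower, with -1.14, -2.66 and -1.70. Ddx4 was called higher, with 0.58, the opposite of its day 2 value of -1.11. Day 4 values of Piwil2, Piwil4, Gtsf1, Sohlh2, Rec8 and Brdt are not given here.

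Repressors of germline genes, subunits of PRC1.6 and of the G9a and histone deacetylase complexes, had 3 calls. Of 14 tested 3 were called lower and none higher (21.4% called, against 7.56% over all genes), with a median of -0.24. DESeq2 called 6 lower and 1 higher, and with the effective-length offset 1 was lower. Tfdp1, the dimer partner of E2F factors, had 354 and 352 CPM in TKO cells on day 2 and 245 and 244 CPM on day 0. WT levels were 375 and 382 CPM on day 2 and 193 and 193 CPM on day 0, with -0.44 ± 0.09 (edgeR adjusted p = 0.00737). Ehmt2, the histone methyltransferase G9a, had -0.34 ± 0.09 (edgeR adjusted p = 0.0378) and Hdac1, a histone deacetylase, -0.41 ± 0.11 (edgeR adjusted p = 0.0409); these calls were lost in 10 and 9 of 20 settings.

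Of 10 genes of the DNA methylation machinery only Tdg, a glycosylase of active demethylation, was called, lower, with -0.45 ± 0.11 (edgeR adjusted p = 0.027), a call lost in 5 of 20 settings. Dnmt3l, which assists the de novo methyltransferases, had 364 and 395 CPM in TKO cells on day 2 and 4.35 and 4.19 CPM on day 0. WT cells had 372 and 421 CPM on day 2 and 1.51 and 0.904 CPM on day 0. Dnmt3l was higher in TKO on day 0 and overlapped on day 2, and its interaction of -1.89 ± 0.54 (edgeR adjusted p = 0.0588) missed the threshold. Uhrf1, which recruits Dnmt1, had 0.08, not called. The median of the 10 genes was -0.40, and 10% were called, against 7.56% over all genes. DESeq2, a stricter filter on low counts and the protein-coding genes alone each called 3 lower. So did non-robust dispersions and the 8 libraries of days 0 and 2 alone. Without the libraries of day 4, 4 were lower, and with the effective-length offset 1 was.

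Genes of the 2-cell stage, among them the Zscan4 family of telomere regulation, were called in none of the 21 tested, of 24 listed, in edgeR. Over all genes edgeR called 7.56%. DESeq2 called 2 lower, and 3 had an unadjusted edgeR p under 0.05, as had 4037 of all 18489 genes. In 13 of the 21 a group held 3 counts or fewer, and the median interaction was -3.16 with them and -1.97 without them. The summed level of Zscan4a to Zscan4f was 1.53 and 2.20 CPM in TKO cells on day 2 and 0.0854 and 0.289 CPM on day 0, against 26.7 and 30.0 CPM in WT cells on day 2 and 0.324 and 0.251 CPM on day 0. Both WT libraries of day 2 were thus above the other 6. Zscan4c stood at 0.301 and 0.704 CPM in TKO and 5.67 and 6.49 CPM in WT cells on day 2, and Zscan4d at 0.219 and 0.305 CPM in TKO and 2.8 and 4.18 CPM in WT cells. The copies share reads, so members are not told apart, and no fold against day 0 is given at these counts.

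X-linked genes of the Rhox, Xlr and Mage families, several methylation-dependent, were called higher in 2 of 33 tested (37 listed) and lower in none. That is 6.06% of those tested, near the 7.56% over all genes, and the median was 0.77. An unadjusted edgeR p under 0.05 was found for 13, and for 4037 of all 18489 genes. The number called depended on the setting. Without the libraries of day 4, 10 of 33 were higher, as were 1431 of all 18261 genes. With the 8 libraries of days 0 and 2 alone 5 of 32 were higher, as were 994 of all 17199 genes. With the effective-length offset 1 of 33 was higher. Rhox4e had 0.711 and 0.633 CPM in TKO cells on day 2 and 0.655 and 0.52 CPM on day 0. WT libraries read 0.609 and 0.363 CPM on day 2 and 2.22 and 1.98 CPM on day 0, with 2.27 ± 0.49 (edgeR adjusted p = 0.0132). Magea2 had 1.69, a call lost in 9 of 20 settings; both have near-identical copies and are uncertain. Of 15 primordial germ cell factors tested (17 listed) 1 was called, Dnd1, an RNA-binding protein of germ cell survival, which had 6.26 and 6.61 CPM in TKO cells on day 2 and 1.54 and 1.24 CPM on day 0. WT levels were 3.84 and 4.18 CPM on day 2 and 3.43 and 2.44 CPM on day 0. It rose in TKO cells with no call in WT cells, with 1.76 ± 0.35 (edgeR adjusted p = 0.00905). The list median was -0.05, and the share called was 6.67%, against 7.56% over all genes.

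Imprinted genes, expressed from 1 parental allele, were called higher in 6 and lower in 2 of 54 tested (58 listed), with a median of 0.14. This was a share of 14.8%, against 7.56% over all genes. Gnas, a complex locus that encodes the stimulatory G protein alpha subunit (chromosome 2, 174284320 to 174346744), had 128 and 133 CPM in TKO cells on day 2 and 35.8 and 36.5 CPM on day 0. WT cells had 110.5 and 109 CPM on day 2 and 77.4 and 71.1 CPM on day 0, with 1.29 ± 0.13 (edgeR adjusted p = 0.00012); it was lowest in TKO on day 0. Ndn, the necdin gene (chromosome 7, 62346569 to 62350262), was at 3.44 and 3.46 CPM in TKO and 4.89 and 3.92 CPM in WT cells on day 0, and TKO was above WT on day 2, with 1.10 ± 0.18 (edgeR adjusted p = 0.00294). Snrpn, which shares its transcript with Snurf, rose less in TKO cells, with -0.70 ± 0.15 (edgeR adjusted p = 0.0119). Snurf, on the same list, had -0.49 ± 0.22 (edgeR adjusted p = 0.205), not called. Ascl2, Grb10, Slc38a4 and Cd81 had 2.58, 0.92, 0.65 and 0.50, and Sfmbt2 had -1.33; the calls of these 5 were lost in 6 to 10 of 20 settings.

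Wnt pathway genes were called higher in 5 and lower in 2 of 35 (20% called, against 7.56% over all genes), with a median of -0.14. Sfrp2, a secreted Wnt antagonist (chromosome 3, 83766321 to 83774316), had 15.2 and 15.9 CPM in TKO cells on day 2 and 0.854 and 0.577 CPM on day 0. WT libraries read 19.4 and 21.3 CPM on day 2 and 4.6 and 4.37 CPM on day 0, with 2.26 ± 0.22 (edgeR adjusted p = 0.00012); the TKO libraries of day 0 were lowest. The antagonist Sfrp1 had 1.15 and the inhibitors Nkd1 and Nkd2 had 0.84 and 0.99. Tcf7l2, a nuclear effector, had -0.75, and the ligand Wnt6 had -2.42. Axin2, a feedback inhibitor of the pathway, had 0.28, not called. Of these calls only that of Sfrp2 was kept in all 20 settings.

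BMP and Id genes were called higher in 3 of 20 (median -0.05) and Nodal-Activin genes in 2 of 20 (median -0.08), with none lower. These were 15% and 10% of those tested, against 7.56% over all genes. Bmp7, a ligand on both lists, had 1.97 and 2.89 CPM in TKO cells on day 2 and 12 and 13 CPM on day 0. WT levels were 2.13 and 2.72 CPM on day 2 and 41.2 and 39.5 CPM on day 0. It fell in both genotypes and less in TKO cells, with 1.71 ± 0.29 (edgeR adjusted p = 0.0034). Chrd, a BMP antagonist, had 0.84 ± 0.17 (edgeR adjusted p = 0.00887), Id4 1.22 ± 0.35 (edgeR adjusted p = 0.0477), and Furin, a protease that matures these ligands, 0.55 ± 0.11 (edgeR adjusted p = 0.00918). The call of Id4 was lost in 12 of 20 settings, including 2 other scalings and every left-out library. Nodal, Lefty1 and Id1 had -0.27, -0.34 and -0.81, none called.

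Targets of p53 were called higher in 3 of 20 and lower in none, with a median of 0.26. Of those tested, 15% of p53 targets and 10.3% of interferon response genes were called, against 7.56% over all genes. Cdkn1a, the cell cycle inhibitor p21 (chromosome 17, 29090976 to 29100727), had 106 and 109 CPM in TKO cells on day 2 and 222 and 226 CPM on day 0. WT cells had 70.0 and 73.4 CPM on day 2 and 359 and 303 CPM on day 0. It fell in both genotypes and less in TKO cells, with 1.15 ± 0.13 (edgeR adjusted p = 0.000247). Pmaip1, the death factor Noxa, had 60.5 and 50.1 CPM in TKO cells on day 2 and 4.7 and 3.49 CPM on day 0. WT libraries read 58.2 and 64.4 CPM on day 2 and 10.6 and 9.44 CPM on day 0; it rose more in TKO cells, with 1.14 ± 0.22 (edgeR adjusted p = 0.00702). Ccng1, cyclin G1, had 0.49 ± 0.11 (edgeR adjusted p = 0.0163). Interferon response genes were called higher in 3 of 29 tested, 30 listed (median -0.05), namely the peptide transporter Tap1 with 1.08, the antiviral factor Bst2 with 0.80 and B2m, of MHC class I, with 1.32. These calls were lost in 2 to 6 of 20 settings.

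Of markers of later lineages tested, 8.33% of neural, 14.3% of streak and mesoderm, 4.55% of endoderm and 11.8% of trophoblast genes were called, against 7.56% over all genes. Of 24 neural genes tested (27 listed) 2 were higher (median 0.55), among them Msi1, which binds RNA in neural progenitors, with 0.57 ± 0.11 (edgeR adjusted p = 0.00625). Of 21 streak and mesoderm genes tested (22 listed) 2 were higher and 1 lower (median -0.62): Twist1 with 1.90 ± 0.29 (edgeR adjusted p = 0.00174), Snai2 with 1.34 ± 0.31 (edgeR adjusted p = 0.0189) and Kdr, a receptor of VEGF, with -2.36 ± 0.45 (edgeR adjusted p = 0.00659). T, the brachyury gene, had -0.50, not called. Of 22 endoderm genes Lama1, a laminin, was higher with 1.36, a call lost in 7 of 20 settings (median -0.03), and of 17 trophoblast genes tested (18 listed) Plet1 was higher with 1.12, beside Ascl2 (median -0.38). Of 17 fibroblast and stromal markers tested (20 listed) none was called in edgeR or in DESeq2 and 3 had an unadjusted p under 0.05 (median -0.26).

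Of genes tested, 12.5% on the list of glycolysis and glucose transport, 10% of those of amino acid and unfolded protein stress and 8.7% of the contractile ones were called, against 7.56% over all genes. Of 24 genes of glycolysis and glucose transport 3 were higher (median -0.12). Pfkm, the muscle phosphofructokinase (chromosome 15, 98092589 to 98132451), had 49.5 and 47.8 CPM in TKO cells on day 2 and 27.1 and 24.4 CPM on day 0. WT levels were 63.7 and 60.5 CPM on day 2 and 76 and 67.3 CPM on day 0, with 1.12 ± 0.11 (edgeR adjusted p = 0.000159); it was lowest in TKO on day 0. Aldoc had 0.93 and the lactate transporter Slc16a3 0.62, with calls lost in 7 and 9 of 20 settings. Of 20 genes of amino acid and unfolded protein stress Phgdh, of serine synthesis, was higher with 0.61 and the pseudokinase Trib3 lower with -0.67 (median 0.05). Of 23 contractile genes Tpm2, a tropomyosin, was lower with -0.73, beside Srf (median 0.07). The calls of Phgdh, Trib3 and Tpm2 were lost in 4 to 7 of 20 settings.

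The 8 largest positive interactions under the naming rule began with Serpina3m, of a family of protease inhibitors with near copies (chromosome 12, 104338486 to 104394257). Serpina3m had 0.355 and 0.164 CPM in TKO cells on day 2 and 0.285 and 0.144 CPM on day 0. WT cells had 0.345 and 0.285 CPM on day 2 and 7.41 and 6.33 CPM on day 0; only the WT day 0 libraries were above 1 CPM, and the interaction was 4.66 ± 0.85 (edgeR adjusted p = 0.0064). Tlx2, a homeobox gene (chromosome 6, 83068324 to 83070293), had 0.683 and 0.305 CPM in TKO and 0.0203 and 0.0778 CPM in WT cells on day 2, a few counts per library in WT, and at least 11 CPM in all 4 day 0 libraries. It fell in both genotypes and less in TKO cells, with 3.81 ± 0.68 (edgeR adjusted p = 0.00442). Tspan2, a tetraspanin (chromosome 3, 102734529 to 102801513), rose in TKO and fell in WT cells. It had 5.79 and 6.31 CPM in TKO cells on day 2 and 1.28 and 1.18 CPM on day 0. WT libraries read 2.66 and 2.96 CPM on day 2 and 7.54 and 7.49 CPM on day 0. TKO was below WT on day 0 and above it on day 2, with an interaction of 3.72 ± 0.30 (edgeR adjusted p = 1.89e-05). Cebpa, a factor of myeloid and fat cell differentiation (chromosome 7, 35119293 to 35121928), had 6.78 and 6.73 CPM in TKO cells on day 2 and 0.484 and 0.404 CPM on day 0. WT levels were 1.89 and 2.23 CPM on day 2 and 1.05 and 0.754 CPM on day 0; its TKO day 2 libraries alone were above 3 CPM, with 2.73 ± 0.36 (edgeR adjusted p = 0.000717).

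Prss50, a serine protease known from testis (chromosome 9, 110857967 to 110864629), had 21.8 and 23.5 CPM in TKO cells on day 2 and 0.0854 and 0.0866 CPM on day 0. WT cells had 16.6 and 18.2 CPM on day 2 and 0.811 and 0.578 CPM on day 0, with 3.35 ± 0.67 (edgeR adjusted p = 0.00905). Adgrg6, an adhesion G protein-coupled receptor (chromosome 10, 14402583 to 14545659), had 0.574 and 0.446 CPM in TKO cells on day 2 and 3.98 and 4.01 CPM on day 0. WT libraries read 0.244 and 0.311 CPM on day 2 and 17.9 and 22.5 CPM on day 0. It fell in both and less in TKO cells, with 3.21 ± 0.37 (edgeR adjusted p = 0.000362). Fthl17c, an X-linked ferritin-like gene with near copies, had 2.66, and Gng2 was given above. Of these 8, Serpina3m and Prss50 lost their calls in 1 and 2 of 20 settings and the other 6 in none.

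The largest negative interactions under the naming rule, 7 of which are given, held Srp54b, whose libraries lay far apart, and genes with few counts on day 2. Srp54b, a signal recognition particle gene with near copies, had 0.0273 and 0.211 CPM in TKO cells on day 2 and 0.626 and 3.9 CPM on day 0. WT levels were 3.39 and 7.11 CPM on day 2 and 0.243 and 0.452 CPM on day 0, so the libraries of both TKO groups differed several-fold, and its interaction was -8.03 ± 1.61 (edgeR adjusted p = 0.0131). Over the 20 alternative settings that value ran between -10.11 and -5.20, and the call was lost in 4. Serpinb1a, a protease inhibitor, held 3 counts in TKO and 17 in WT cells on day 2, a ratio of 0.196 with a 95% exact binomial interval of 0.0367 to 0.676, which covers counting error only. Its fitted interaction was -2.45 ± 0.59 (edgeR adjusted p = 0.0227), a call lost in 6 of 20 settings.

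Pramel7 and Pramel6, of a family with near copies that is active in the inner cell mass, fell in both genotypes and more in TKO cells. Pramel6 had 0.082 and 0.0704 CPM in TKO cells on day 2 and 25.7 and 25.7 CPM on day 0. WT cells had 0.102 and 0.208 CPM on day 2 and 8.52 and 8.06 CPM on day 0, with -2.58 ± 0.56 (edgeR adjusted p = 0.0152). Pramel7 had 0.164 and 0.188 CPM in TKO cells on day 2 and 6.58 and 6.96 CPM on day 0. WT libraries read 0.284 and 0.415 CPM on day 2 and 1.92 and 1.78 CPM on day 0, with -2.82 ± 0.57 (edgeR adjusted p = 0.00912). Both were higher in TKO than in WT cells on day 0 and at 0.415 CPM or less on day 2, and their calls were lost in 2 settings for Pramel7 and 3 for Pramel6. Ephb1, a receptor of ephrins (chromosome 9, 101922128 to 102354693), had 0.328 and 0.211 CPM in TKO cells on day 2 and 5.98 and 7.22 CPM on day 0. WT levels were 0.67 and 0.363 CPM on day 2 and 2.54 and 2.31 CPM on day 0, with -2.42 ± 0.42 (edgeR adjusted p = 0.00389). Egr1 and Krt42 were given above.

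Of the 97 genes named here that were called, 43 were called in all 20 alternative settings, and none turned its direction in any of them. The other 54 lost the call in at least 1, of which 32 lost it in a setting other than a left-out library. Positive calls outnumbered negative ones in every setting.

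**Figure D5:**
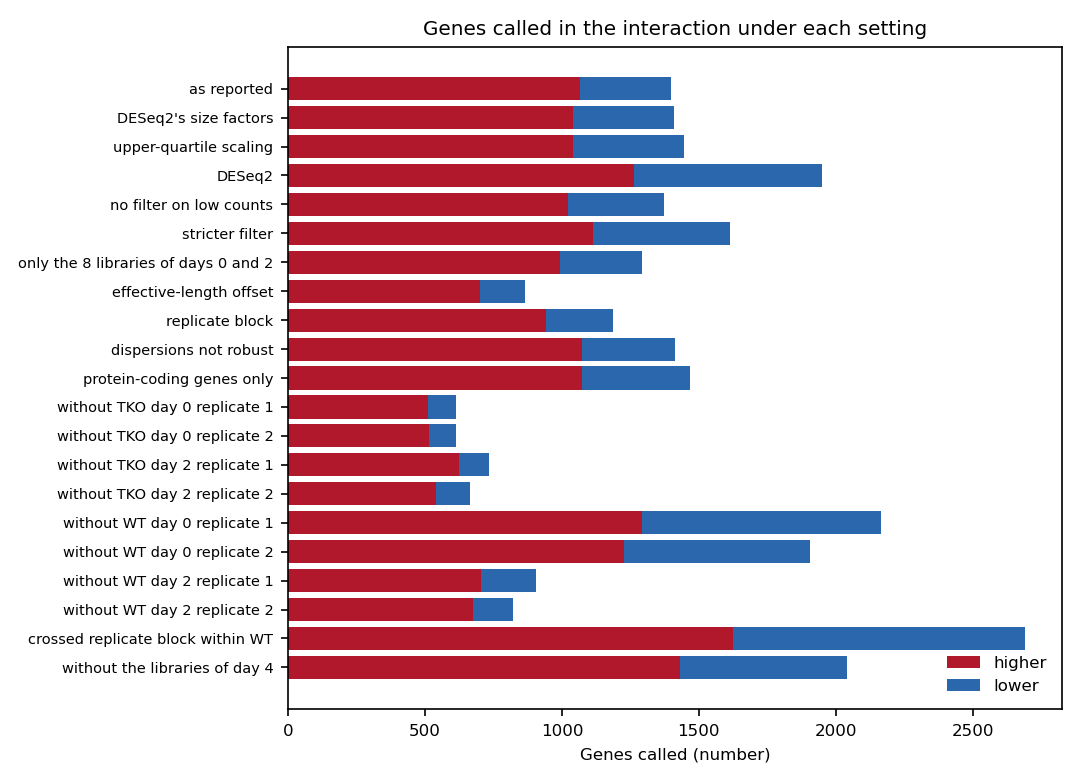
Bars give the number of genes called higher (red) and lower (blue) in the interaction as reported and under 20 alternative settings. Numbers ran from 615 without either TKO day 0 library to 2691 with a crossed replicate block within WT.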

How the data were processed

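Each deposited table gives 3 values per transcript, per the file headers: an estimated count, that is an expected count without normalisation, a TPM value, which is relative to depth and length and was not used as a level of expression, and another quantity, the effective length. Per the submitters' processing notes the authors ran kallisto, with no version named, and the builds GRCm38 and mm10; the annotation is not given in the sources used here. Transcript identifiers were matched to GENCODE vM21, leaving 0.964% to 1.051% of the counts of the 8 libraries unmatched, and counts were summed to 35975 genes and rounded. The 18489 genes kept by filterByExpr (17004 protein-coding) were fitted in edgeR 4.0.16 under R 4.3.3, with TMM scaling and robust quasi-likelihood dispersions, using the 16 libraries of the series and a mean for each group. This left 8 residual degrees of freedom, at a common biological coefficient of variation of 0.111. Calls are at a Benjamini-Hochberg adjusted p under 0.05. Values after ± are standard errors, the log2 value over the root of the F statistic. The script was tested on simulated data.

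The members and the 26 lists were chosen with earlier results of these data known. Genes were named by a rule of 4 parts. The first were the 8 largest called interactions per direction, protein-coding, not predicted genes, at 5 CPM or more in the highest group and with a sign kept in the least favourable combination of libraries. The second were the 2 called members of lowest adjusted p per list and direction, the third a fixed set of markers, and the last the 3 genes of lowest adjusted p in each of the 4 commonest combinations of time calls. Alternatives were other scalings, DESeq2 1.42.0, other filters, subsets of libraries or genes, an effective-length offset, a replicate block, non-robust dispersions and each library left out. Promoters came from RefSeq. Some genes and a list that the rule covers are not reported here.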

Additional observations from a re-analysis of the deposited data

Results flagged for a closer look

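The change over time differed between TKO and WT cells for 97 genes named in the report, by the interaction test itself (edgeR, Benjamini-Hochberg adjusted p under 0.05). In 65 of them the TKO change lay above the WT change, and in 32 it lay below. Values are the interactions in log2.

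The TKO change lay above the WT change by 2 or more on the log2 scale in these genes, as signed interactions: 4.66 for Serpina3m, 3.81 for Tlx2, 3.72 for Tspan2, 3.35 for Prss50, 3.21 for Adgrg6, 3.00 for Gng2, 2.73 for Cebpa, 2.66 for Fthl17c, 2.60 for Galnt12, 2.58 for Ascl2, 2.48 for Prnp, 2.27 for Rhox4e, 2.27 for Hunk, 2.26 for Sfrp2, 2.25 for Dmc1, 2.19 for Asz1, 2.14 for Obsl1, 2.14 for Fstl1, 2.03 for Slc38a6 and 2.02 for Olfr784. Values of at least 1 and under 2 in size were 1.90 for Twist1, 1.76 for Dnd1, 1.73 for Itgb5, 1.71 for Bmp7, 1.69 for Dazl, 1.69 for Magea2, 1.63 for Gtsf1, 1.39 for Piwil4, 1.36 for Lama1, 1.34 for Snai2, 1.32 for B2m, 1.29 for Gnas, 1.29 for Sept8, 1.26 for Sox3, 1.22 for Snx25, 1.22 for Id4, 1.15 for Cdkn1a, 1.15 for Sfrp1, 1.14 for Pmaip1, 1.12 for Plet1, 1.12 for Pfkm, 1.10 for Ndn, 1.08 for Tap1, 1.01 for Sohlh2 and 1.00 for Piwil2. Values under 1 were 0.99 for Nkd2, 0.96 for Grhl2, 0.95 for Stk31, 0.94 for Zfp36, 0.93 for Aldoc, 0.92 for Grb10, 0.91 for Dusp5, 0.89 for Rec8, 0.84 for Chrd, 0.84 for Nkd1, 0.80 for Bst2, 0.75 for Lef1, 0.73 for Arc, 0.65 for Slc38a4, 0.62 for Slc16a3, 0.61 for Phgdh, 0.57 for Msi1, 0.55 for Furin, 0.50 for Cd81 and 0.49 for Ccng1.

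The TKO change lay below the WT change by 2 or more on the log2 scale in these genes, as signed interactions: -8.03 for Srp54b, -3.85 for Egr1, -2.82 for Pramel7, -2.73 for Krt42, -2.58 for Pramel6, -2.45 for Serpinb1a, -2.42 for Ephb1, -2.42 for Wnt6, -2.36 for Kdr and -2.27 for Tdrd1. Values of at least 1 and under 2 in size were -1.96 for Spry4, -1.89 for Brdt, -1.50 for Foxd3, -1.42 for Lin28a, -1.39 for Car14, -1.36 for Sycp3, -1.33 for Sfmbt2, -1.19 for Etv4 and -1.11 for Myc. Values under 1 were -0.93 for Ddx4, -0.75 for Tcf7l2, -0.73 for Tpm2, -0.70 for Snrpn, -0.68 for Sall4, -0.67 for Trib3, -0.64 for Srf, -0.48 for L1td1, -0.45 for Tdg, -0.44 for Tfdp1, -0.43 for Ccnd1, -0.41 for Hdac1 and -0.34 for Ehmt2.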

How the results depend on the processing

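The called total was within 1.5 times of 1398 under other scalings, other filters, non-robust dispersions, the 8 libraries alone and protein-coding genes alone. Of the 1398 calls 74.7% were kept, in the same direction, with the 8 libraries alone and 86.6% with no filter on low counts. The other settings just named kept 97.9% to 99.4%. With DESeq2 688 genes were lower. With the effective-length offset 867 were called, 702 higher and 165 lower, and 57.0% of the 1398 calls were kept. Without the day 4 libraries 611 were lower. Leaving out 1 library at a time gave 615 to 2166 called, 510 to 1294 higher and 99 to 872 lower, the most without a WT day 0 library, where the lone sample is assumed to vary like the other groups. The cause was not tested. The counts set the precision.

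Replicate numbers shared between groups did not pair the libraries. Deviations of WT day 0 and WT day 2 correlated at -0.554, so that opposite numbers in these 2 groups deviated together. For all other pairs of groups the correlation lay from -0.136 to 0.121. With the replicate block 1185 genes were called, 943 higher and 242 lower. With the WT numbers crossed, chosen after seeing the data, 2691 were called, 1623 higher and 1068 lower.

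No called gene that the report names changed sign in these settings; genes that did were not called. Leaving out 1 library moved Dnmt1 between -0.02 and 0.24, Pou5f1 between -0.41 and 0.03, Sox2 between -0.20 and 0.03, Otx2 between -0.12 and 0.07 (0.01 with the effective-length offset), Dusp6 between -0.07 and 0.02 and T between -1.68 and 0.07. The interaction of Zscan4c ran between -8.19 and 1.96.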
